A study of Mus musculus with 14 samples.

Results

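The histone lysine methylases and demethylases are the enzymes that place or remove methyl groups on lysines of histones H3 and H4. They were taken as every gene of the spleen or ovary comparison whose symbol starts with Kdm, Kmt or Setd, together with Ehmt1, Ehmt2, Suv39h1, Suv39h2, Dot1l, Ezh1, Ezh2, Nsd1 and Ash1l. The rule gave 46 of the 20139 genes of the 2 comparisons, 44 in the spleen and 45 in the ovary, and used no measured difference. The data are 14 poly(A) RNA libraries from 13 animals: spleens, 4 of each genotype (wild type and L2-fKO), and ovaries, 3 of each, with L2-fKO spleen 3 and L2-fKO ovary 1 from the same animal. L2-fKO animals were Zfp36l2-/-;CMV-Cre, with exon 2 of both Zfp36l2 alleles recombined in all tissues by Cre under the CMV promoter, and the wild-type controls had both intact copies and carried the CMV-Cre transgene as well. All were pups, whose age was not given for each library. The labels call the spleen source an organoid and the knockout L2-cKO. Among the spleens, 2 wild-type and 1 L2-fKO animals were female and 2 wild-type and 3 L2-fKO animals were male, and all ovary donors were female. Per the study's methods the wild-type controls were littermates and the spleens were taken in pairs matched for age, but no source used here says which libraries formed a pair or came from one litter.

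Methylation of H3K4, H3K36 and H3K79 is found on active genes, and methylation of H3K9 and H3K27 and trimethylation of H4K20 mostly on silent chromatin. Methylases carry a SET domain, with DOT1L as the exception, and demethylases belong to the flavin-dependent LSD class or to the JmjC class. In growing oocytes these marks are laid down anew, and ZFP36L2, an RNA-binding protein that recognises AU-rich elements in 3′UTRs and promotes the decay of the mRNA, is known to restrain mRNAs of such enzymes there. The question addressed here was whether their mRNAs differ in level when Zfp36l2 is deleted from whole spleen or whole ovary.

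The 7-mer UAUUUAU, which ZFP36L2 binds, was searched as TATTTAT on the transcribed strand of protein-coding genes, each by its longest annotated 3′UTR, with overlapping matches counted. The windows of 29 bases that follow hold the motif in capitals, and belong to members on which the results turn: Kdm5b, which passed the test in spleen, Kdm1b, the highest in ovary, Kdm2b and Suv39h2, which lay nearest the threshold in ovary, and the other members given library by library that hold a match.
Kdm5b: taggctaggttTATTTATctcagcaataa
Kdm1b: tgtatctaataTATTTATatggtcaacag
Kdm2b: tgtttaaaaatTATTTATgggagatttga
Suv39h2: ctcatgttagcTATTTATacagggtatgt
Kdm4c, first: gccggtgggtgTATTTATatatattttcc
Kdm4c, second: ttctgaaatgaTATTTATaaaatatatat
Kdm6a, first: taaatttacacTATTTATaaatacatatt
Kdm6a, second: ttataaatacaTATTTATtgcctgaaaat
Kdm6b: ccactcacctcTATTTATtcatttttttt
Kmt2d, first: agggtggggggTATTTATctatttataca
Kmt2d, second: gggtatttatcTATTTATacatgggattg

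In build GRCm38 the Kdm5b window lies at chr1:134631872-134631900 on the plus strand and the Kdm1b window at chr13:47085202-47085230 on the plus strand. The Kdm2b window is at chr5:122871196-122871224 and the Suv39h2 window at chr2:3456584-3456612, both on the minus strand. The Kdm4c windows are at chr4:74405368-74405396 and chr4:74405691-74405719, plus strand, and the Kdm6a windows overlap at chrX:18279315-18279343 and chrX:18279329-18279357, plus strand. Kdm6b has its window at chr11:69399197-69399225 and Kmt2d its overlapping windows at chr15:98833289-98833317 and chr15:98833281-98833309, all on the minus strand. Every window is within the longest annotated 3′UTR of the named gene. For Kdm5b, Kdm1b and Suv39h2 the annotated 3′UTR of median length, with 712, 1638 and 1043 bases, holds no match. Which 3′UTR is used in spleen or ovary was not tested. Kmt5c, Setdb1 and Setd4, which passed the test in one organ each, hold no such letters in their annotated 3′UTRs of 623, 548 and 256 bases.

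Of the 44 members tested in the spleen, 21 (47.7%) held at least 1 match, against 29.7% of the 14192 tested genes with a 3′UTR. Members had longer 3′UTRs, with a median of 1452 bases against 1161. Among the genes tested in the spleen, 59.7% of those with a 3′UTR of at least 2620 bases held the 7-mer, as did 9 of the 12 members of that length, and 5.83% of those of at most 391 bases held it, as did 0 of 5 members. In between, 2 of 8, 5 of 10 and 5 of 9 members held it, where 17.1%, 27.1% and 38.7% of genes of the same length did. No test was made of these shares.

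In wild-type organs the members were mostly of middling to high level. Levels are given in reads per kilobase of merged exon per 1000000 reads of the library (RPKM), a scale that lets genes be compared. In spleen the median over the 44 members tested was 5.73, against 3.47 over all genes tested, and in ovary 9.89 over 45 members against 4.56. The highest in wild-type spleen were Kmt5a, the H4K20 monomethylase of dividing cells, with a level of 37.1 ± 7.28 (SD, n = 4), Ezh2, the catalytic subunit of Polycomb repressive complex 2, with 28.3 ± 2.96, and Kmt5c, an H4K20 methylase of heterochromatin, with 27.2 ± 4.19. Ezh2 and Kmt5c did not differ beyond their spread. The lowest were Kdm4d, with a level of 0.068 ± 0.029, the antisense gene Kdm6bos, with 0.186 ± 0.110, and Kdm5d, with 0.455 ± 0.520, whose spread is that of the sexes described further on. Kdm4d had 1 to 14 counts a spleen and Kdm6bos 2 to 12, and both fell below the filter for a test.

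In wild-type ovary the order was led by Kdm1b. This LSD demethylase of H3K4, which is made in growing oocytes and needed to set maternal imprints, had a level of 67.3 ± 3.14 (SD, n = 3), 32.4 times its level of 2.08 ± 0.463 in wild-type spleen. Next were Ehmt2, which makes H3K9me2, with a level of 36.1 ± 2.25, and Kdm5c, an X-linked H3K4 demethylase, with 23.1 ± 0.604. Kmt5a followed at 22.5 ± 1.30 and did not differ from Kdm5c beyond its spread. The lowest were Kdm4d with a level of 0.376 ± 0.087, Kdm6bos with 0.648 ± 0.370 and Setdb2 with 3.34 ± 0.405. After Kdm1b the largest ratios of wild-type ovary to wild-type spleen were those of Setd4, at 8.14, Kdm4d, at 5.54, Kdm5b, at 3.58, and Kdm6bos, at 3.48, followed by Ash1l, Kdm6b and Kdm4b, at 2.96, 2.93 and 2.84. In the opposite direction 8 members had a ratio below 1. Kdm7a stood at 0.291 of its spleen level, Kmt5c at 0.434, Ezh2 at 0.546, Suv39h1 at 0.548 and Kmt5a at 0.606, with Setdb2, Kdm8 and Kdm6a at 0.816 to 0.917. These ratios set separately made tables side by side and were not tested.

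**Figure D1:**
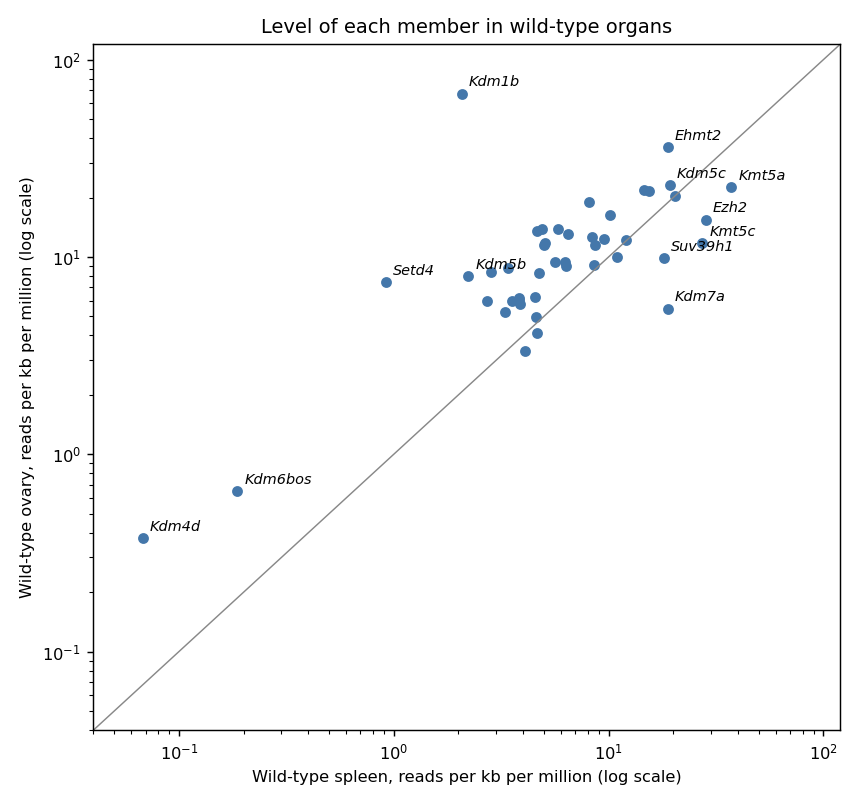
Mean level of each member in wild-type spleen (x axis, 4 libraries) and wild-type ovary (y axis, 3 libraries), both in RPKM on log scales, with the line of equal levels. Kdm1b stands far above the line, at 67.3 in ovary and 2.08 in spleen, and Kdm7a, Kmt5c, Ezh2, Suv39h1 and Kmt5a lie well below it, with Setdb2, Kdm8 and Kdm6a just below. Kdm5d was not in the ovary table and is not drawn.

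The deleted gene was low in every L2-fKO library. Zfp36l2 had normalized counts of 7394, 4773, 6429 and 4362 in wild-type spleens 1 to 4 and of 277.7, 325.7, 348.7 and 405.0 in the L2-fKO spleens, and of 4868, 4906 and 4745 in wild-type and 758.3, 1011 and 1009 in L2-fKO ovaries. The count takes in every exon of the gene and so also those that were not floxed. Spleen libraries held 39138010 to 45167464 counts and ovary libraries 31052510 to 44270070 reads. The L2-fKO spleens also differed in cell type markers. The summed level of 12 megakaryocyte genes was 577.8 to 1072 in wild-type and 103.5 to 166.1 in L2-fKO spleens, and that of 12 neutrophil genes 4431 to 7857 and 284.8 to 1703, with 11 and 10 of the genes of each list lower by the test and no listed gene at 0 in either group. The sum of 8 stroma genes was 147.0 to 183.5 in wild-type and 197.3 to 307.1 in L2-fKO spleens, with 4 of the genes higher by the test, and that of 10 macrophage genes 459.7 to 986.4 and 773.2 to 1501, with 2 higher and the groups overlapping. No listed gene of either was at 0. In bulk RNA, fewer cells of a type and less RNA per cell cannot be told apart. A sum of 10 pancreatic acinar genes was 370.6, 93.6, 0.892 and 305.4 in wild-type spleens 1 to 4 and 0.520 to 1.24 in L2-fKO spleens.

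In the spleen, few members changed. Kmt5c and Setdb1 rose and Kdm5b fell at an adjusted p below 0.05 (edgeR, quasi-likelihood, adjusted by Benjamini-Hochberg over all genes tested). That is 2 of 44 members higher (4.55%) where 6.89% of 16911 genes were higher, and 1 of 44 lower (2.27%) where 6.51% were lower. With a log2 fold change above 1 in either direction also asked for, only Kmt5c was left, 2.27% of the members tested against 6.01% of all genes. The members called depended on how sex was treated. With sex as a covariate 4 passed, all higher, Kmt5c, Setdb1, Kdm5c and Kdm7a, and in males only 4 passed, all higher, Kmt5c, Setd7, Kdm2b and Kdm4b. The shares of all genes higher and lower in these 2 fits are not given here, so neither the counts nor their direction can be set against a background. The median log2 fold change over the members was -0.021 and over all genes -0.020. The median size of the log2 fold change regardless of sign was 0.153 for members and 0.272 for all genes, with 21 members above 0 and 23 below. In 42 of the 44 the 95% interval of the log2 fold change lay between -1 and 1, the exceptions being Kmt5c and Kdm5d, and in 22 it lay between -0.5 and 0.5.

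In the ovary 1 member changed. Setd4 rose by limma on log2(normalized count + 1), which is 2.22% of the 45 members tested against 1.23% of 18504 genes higher. None was lower, where 0.351% of genes were. An unadjusted p below 0.05 by limma was reached by 8 members, some higher and some lower, and DESeq2 on the recovered reads gave 2 lower and 2 higher. The shares of all genes by these 2 criteria are not given here, so the counts cannot be set against a background. No member passed with a log2 fold change above 1, where 0.957% of genes did by limma, nor did any by edgeR or DESeq2. The median log2 fold change over members was -0.037 and over all genes -0.004, with 19 members above 0 and 26 below. Intervals lay between -1 and 1 for 43 members, all but Kdm4d and Kdm6bos, the lowest in level, and between -0.5 and 0.5 for 36.

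**Figure D2:**
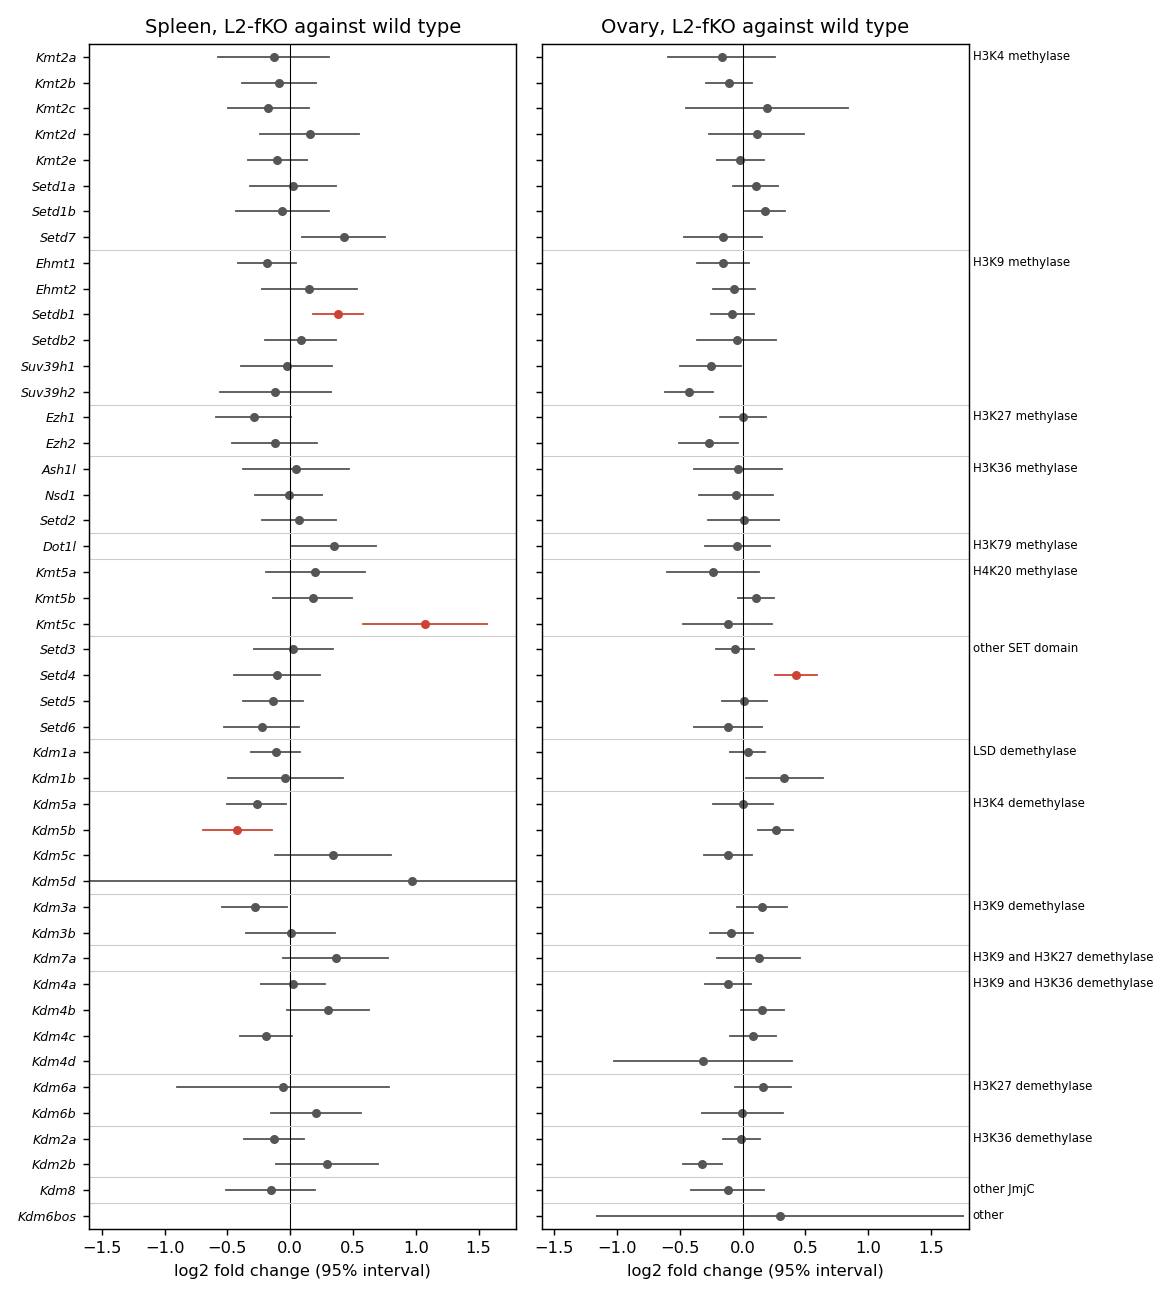
Log2 fold change of each member, L2-fKO against wild type, with its 95% interval, in spleen (left, 4 against 4) and ovary (right, 3 against 3), grouped by the mark assigned to the enzyme. Members with an adjusted p below 0.05 are red: Setdb1, Kmt5c and Kdm5b in spleen and Setd4 in ovary. The interval of Kdm5d in spleen, -2.23 to 4.17, runs past the axis.

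The groups of libraries did not overlap for 5 of the 44 members in spleen (11.4%), where this held for 20.4% of all genes. These were Kmt5c, Setdb1 and Setd7, higher in L2-fKO, and Kdm5b and Kdm4c, lower. In ovary they did not overlap for 12 of 45 members (26.7%), where this held for 25.2% of all genes. Kdm1b, Kdm4b, Kdm5b, Kmt5b, Setd1a, Setd1b and Setd4 were higher in L2-fKO in all 3 libraries, and Ezh2, Kdm2b, Kdm4a, Suv39h1 and Suv39h2 were lower.

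Among the methylases, Kmt5c (ENSMUSG00000059851, chr7:4740115-4747514) had the largest fold change that passed the test. KMT5C adds the further methyl groups to H4K20 after the first in pericentric heterochromatin. Its normalized counts were 4249, 4437, 5584 and 4479 in wild-type spleens and 9614, 9391, 14230 and 6224 in L2-fKO spleens. Every L2-fKO spleen was above every wild-type spleen, with the L2-fKO libraries far more spread, and the means were 4687 ± 605.9 and 9865 ± 3297 (SD, n = 4 each). The log2 fold change was 1.07 with a standard error (SE) of 0.22 and an adjusted p of 0.0126, and an exact two-sided permutation test of the means gave p = 0.0286, the smallest that 4 against 4 can give.

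The call of Kmt5c held under each of the 15 alternatives tried, with log2 fold changes of 0.84 to 1.24 and adjusted p-values up to 0.0460. Its size fell below a log2 fold change of 1 in 2 of them, with 0.84 when L2-fKO spleen 3, the library with the highest value, was left out and 0.92 in males only. The summed level of 13 erythroid genes was 3947, 3566, 3996 and 4140 in wild-type spleens 1 to 4 and 4987, 4782, 5747 and 3426 in L2-fKO spleens 1 to 4, with no listed gene at 0. L2-fKO spleen 3 was thus highest and L2-fKO spleen 4 lowest of the L2-fKO libraries in both that sum and Kmt5c, while Kmt5c in L2-fKO spleen 4 was above all wild-type spleens and the erythroid sum there was below them. The stroma sum was higher in all L2-fKO than in all wild-type spleens, as Kmt5c and Setdb1 were, with its highest value in L2-fKO spleen 4, the lowest L2-fKO library for Kmt5c. Among the L2-fKO libraries the sum of 18 proliferation genes was likewise highest in spleen 3, at 2037, and lowest in spleen 4, at 1255, with 1435 to 1999 in wild-type spleens. The part of cell composition or proliferation in the changes of Kmt5c and Setdb1 was not tested.

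In ovary Kmt5c had normalized counts of 1582, 1710 and 1937 in wild-type and 1359, 1493 and 2012 in L2-fKO libraries. The groups overlapped, and the log2 fold change was -0.12 (95% interval -0.48 to 0.24, adjusted p 0.731, limma). Its relatives did not pass the test in either organ. Kmt5a, which places the first methyl group on H4K20, had a log2 fold change of 0.20 in spleen and -0.24 in ovary, and Kmt5b, the paralogue of Kmt5c, of 0.18 and 0.11.

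Of the 6 H3K9 methylases, Setdb1 alone rose in spleen. SETDB1 trimethylates H3K9 at endogenous retroviruses and silenced genes. Setdb1 (ENSMUSG00000015697, chr3:95323525-95357202) had normalized counts of 2287, 2351, 2577 and 2357 in wild-type spleens and 3008, 3167, 3282 and 3010 in L2-fKO spleens. The groups were tight and apart, with means of 2393 ± 126.8 and 3117 ± 132.7 (SD, n = 4 each), and the log2 fold change was 0.38 with an SE of 0.09 and an adjusted p of 0.0202. Setdb1 kept its size but not its call when a single library was removed: without L2-fKO spleen 1, 2 or 3 the adjusted p was 0.0600, 0.0799 or 0.0520, and without wild-type spleen 2 or 4 it was 0.0615 or 0.0717, with log2 fold changes of 0.36 to 0.42 over all libraries left out in turn. It was 0.0561 in males only, 0.0808 with a replicate block and 0.0725 without a minimum count. Setdb1 passed when sex was a covariate (adjusted p 0.0248). Exons of Setdb1 overlap those of Cers2 on the opposite strand, and reads were counted by strand.

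In ovary the Setdb1 counts were 4909, 4771 and 4744 in wild-type and 4738, 4152 and 4747 in L2-fKO libraries, a log2 fold change of -0.08 (95% interval -0.26 to 0.09, adjusted p 0.611, limma). All 6 H3K9 methylases were below 0 there, with log2 fold changes of -0.43 to -0.05, and none passed by limma, while DESeq2 on the recovered reads called Suv39h2 lower. All 6 were also below 0 by edgeR and DESeq2 on the recovered reads, and 5 were without L2-fKO ovary 1. In ovary 16 of all 23 methylases and 26 of the 45 members were below 0 by limma, and 49.3% of all genes were above 0. These fits share libraries, and the 6 were not tested as a group. Suv39h2, which makes H3K9me3 at constitutive heterochromatin, was the nearest to the threshold by limma. Its normalized counts were 984.4, 959.3 and 992.7 in wild-type and 727.9, 687.4 and 770.9 in L2-fKO ovaries, and the adjusted p was 0.0581 by limma and 0.0019 by DESeq2. The X-linked Suv39h1 had a log2 fold change of -0.25 (adjusted p 0.280) and the partners Ehmt1 and Ehmt2 of -0.16 and -0.07. In spleen the other H3K9 methylases lay between -0.19 and 0.15.

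The 8 members grouped here as H3K4 methylases had log2 fold changes of -0.17 to 0.43 in spleen and -0.17 to 0.20 in ovary. None passed by edgeR in spleen or limma in ovary, while DESeq2 called Setd7 in spleen. The grouping was assigned and says nothing of the activity of each protein, such as that of Kmt2e. Kmt2d, which marks enhancers and has a pair of 7-mers, had normalized counts of 4080, 2428, 3937 and 2729 in wild-type and 3160, 3597, 3788 and 4122 in L2-fKO spleens, and of 4064, 4810 and 3908 in wild-type and 5460, 4979 and 3555 in L2-fKO ovaries. The groups overlapped in both organs, with log2 fold changes of 0.15 (SE 0.18) and 0.11 (SE 0.16). Setd7, a monomethylase of H3K4, had 1275 to 1904 normalized counts in wild-type and 1914 to 2335 in L2-fKO spleens, with a log2 fold change of 0.43 and an adjusted p of 0.0886 by edgeR and 0.0472 by DESeq2. Its change was 0.74 in males only (adjusted p 0.0119) and 0.53 without wild-type spleen 1 (adjusted p 0.0461), both by edgeR, and in ovary it was -0.16. Of the rest, Kmt2a, Kmt2b, Kmt2c, Kmt2e, Setd1a and Setd1b had adjusted p-values of at least 0.463 in spleen and at least 0.257 in ovary.

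Ezh2 and Ezh1, the alternative H3K27 methylases of Polycomb repressive complex 2, did not pass the test in either organ. Ezh2 had normalized counts of 7023, 7792, 8747 and 9124 in wild-type and 7542, 7914, 8884 and 5648 in L2-fKO spleens, for a log2 fold change of -0.12 (SE 0.15). In ovary the L2-fKO libraries, at 3401, 2710 and 3441, all lay below the wild-type libraries, at 3928, 3869 and 3667. Its log2 fold change there was -0.27 with an SE of 0.10 and an adjusted p of 0.244, and the log2 fold change was -0.16 without L2-fKO ovary 2. L2-fKO ovary 2, the lowest for Ezh2, was also lowest in the summed level of 11 granulosa cell genes, at 586.0 against 1170 and 1289 in the other L2-fKO and 1261 to 1433 in wild-type ovaries. The sum of 18 proliferation genes was lowest there too, at 466.4 against 531.0 and 574.0 in the other L2-fKO and 571.3 to 589.7 in wild-type ovaries. In spleen L2-fKO spleen 4 was lowest both for Ezh2 and in the proliferation sum, at 1255 against 1435 to 1999 in wild-type spleens. The part of these sums in the values was not tested. Ezh1 had log2 fold changes of -0.29 in spleen and 0.00 in ovary.

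The H3K36 methylases stood almost at 0. Setd2, the enzyme that trimethylates H3K36 behind RNA polymerase, had normalized counts of 4810, 3959, 5664 and 4312 in wild-type and 4218, 5032, 5248 and 5222 in L2-fKO spleens, and of 6884, 6864 and 5771 in wild-type and 7439, 6700 and 5568 in L2-fKO ovaries. Its log2 fold changes were 0.07 (95% interval -0.22 to 0.37) and 0.01 (-0.28 to 0.29), and both groups overlapped throughout. Nsd1, a dimethylase of H3K36, had -0.01 in spleen and -0.05 in ovary, and Ash1l 0.05 and -0.04. Dot1l, the H3K79 methylase with 2 7-mers, had a log2 fold change of 0.35 in spleen (adjusted p 0.151, and 0.0457 without L2-fKO spleen 4) and of -0.04 in ovary.

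Setd4 rose in ovary. It belongs to the SET-domain proteins whose histone substrate is less settled, with Setd3, Setd5 and Setd6. Setd4 (ENSMUSG00000022948, chr16:93583457-93604063) had normalized counts of 1427, 1543 and 1479 in wild-type and 2040, 1889 and 2050 in L2-fKO ovaries, means of 1483 ± 58.1 and 1993 ± 90.3 (SD, n = 3 each). The groups did not overlap. Its log2 fold change was 0.43 with an SE of 0.07 and an adjusted p of 0.0372 by limma, and an exact permutation test of 3 against 3 cannot go below p = 0.1. The call held in every fit that kept all 6 libraries, but the adjusted p was 0.0902 and 0.0783 without L2-fKO ovary 1 and 3 and 0.192, 0.15 and 0.182 without wild-type ovary 1, 2 and 3.

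In the ovary libraries the summed level of 18 oocyte genes was 3677 to 4021 in wild-type and 4019 to 4233 in L2-fKO, and that of 10 macrophage genes 56.7 to 59.9 and 82.8 to 107.2. In spleen Setd4 was among the lowest members, with 182.9 to 237.7 normalized counts in wild-type and 174.9 to 214.9 in L2-fKO libraries and a log2 fold change of -0.11 (adjusted p 0.687). Setd3, a histidine methylase of actin, Setd5 and Setd6 lay between -0.23 and 0.03 in spleen and -0.12 and 0.01 in ovary, and none passed the test.

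**Figure D3:**
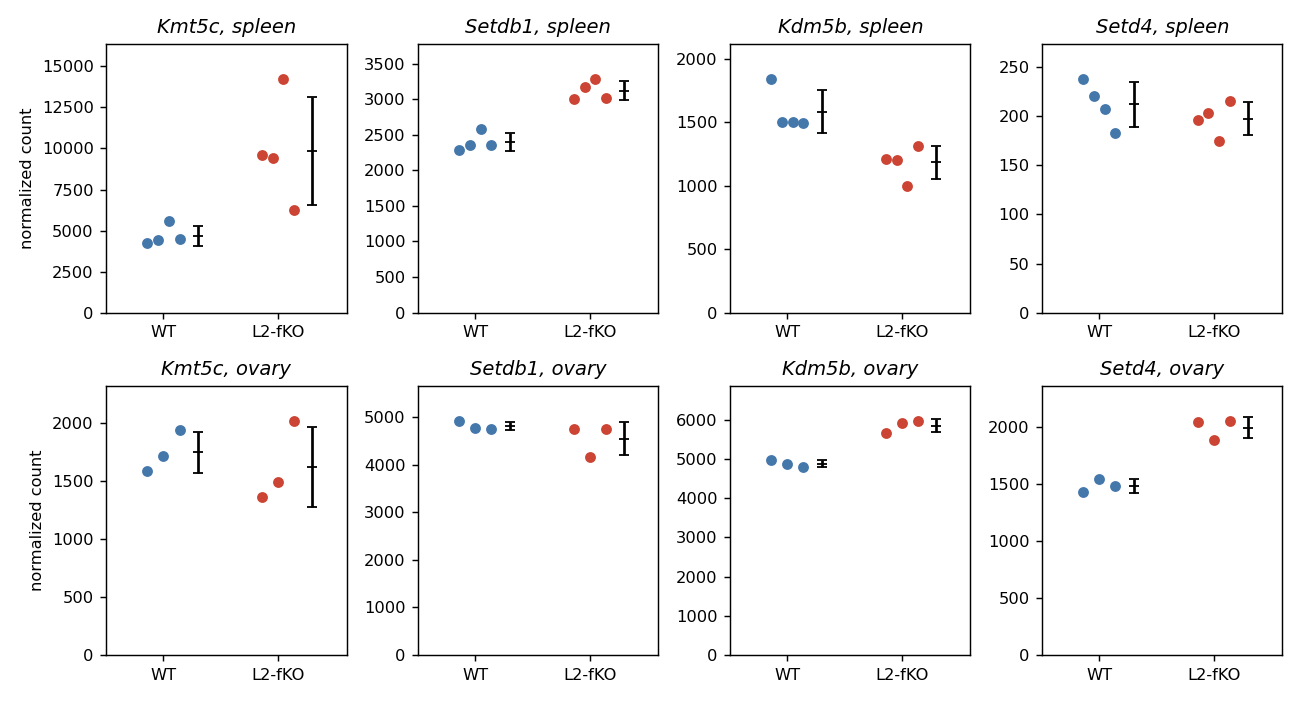
Normalized counts of Kmt5c, Setdb1, Kdm5b and Setd4 in each library of spleen (top) and ovary (bottom), wild type in blue and L2-fKO in red, with the mean and SD beside each group. Y axes start at 0 and differ between panels. In spleen the groups are apart for Kmt5c, Setdb1 and Kdm5b, and in ovary for Kdm5b and Setd4.

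Among the demethylases, Kdm5b fell in spleen. KDM5B removes methyl groups from H3K4 at promoters. Kdm5b (ENSMUSG00000042207, chr1:134560171-134635285) had normalized counts of 1842, 1502, 1504 and 1492 in wild-type and 1214, 1207, 999.4 and 1316 in L2-fKO spleens, with means of 1585 ± 171.4 and 1184 ± 132.8 (SD, n = 4 each). The groups did not overlap, and wild-type spleen 1 stood above the other wild-type libraries. On the log2 scale the fold change was -0.42 with an SE of 0.12 and an adjusted p of 0.0490. That adjusted p was 0.108 without wild-type spleen 1, 0.0911 and 0.0977 without wild-type spleen 2 and 4, and 0.116, 0.112 and 0.104 without L2-fKO spleen 1, 2 and 3, with log2 fold changes of -0.47 to -0.34 over all libraries left out in turn. The groups differ in their share of males, and the call was also lost with sex as a covariate (-0.43, adjusted p 0.0704) and in males only, where the change was smaller (-0.27, adjusted p 0.157). With a replicate block the adjusted p was 0.102, and without a minimum count Kdm5b did not pass either. Wild-type spleen 1 was also highest in the acinar sum, at 370.6, while wild-type spleen 4, with the lowest wild-type Kdm5b, was next at 305.4. The sum of 10 B cell genes was 875.6 in wild-type spleen 1 and 161.0 to 379.2 in the other wild-type spleens. Its proliferation sum, at 1435, was the lowest of the wild-type spleens. The part of these sums in the Kdm5b value was not tested.

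In ovary Kdm5b lay in the opposite direction, with normalized counts of 4968, 4866 and 4794 in wild-type and 5665, 5928 and 5961 in L2-fKO libraries. The groups were apart, and the log2 fold change was 0.26 with an SE of 0.06 and an adjusted p of 0.0843 by limma and 0.0107 by DESeq2 on the recovered reads. The other autosomal H3K4 demethylase of the JmjC class, Kdm5a, had log2 fold changes of -0.27 in spleen (adjusted p 0.125) and 0.00 in ovary.

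Kdm1b had normalized counts of 628.1, 449.5, 464.1 and 418.4 in wild-type and 478.1, 433.1, 349.8 and 646.3 in L2-fKO spleens, which overlapped, with a log2 fold change of -0.04 (95% interval -0.50 to 0.42). In ovary it had 13280, 14270 and 13470 in wild-type and 15910, 21370 and 14980 in L2-fKO libraries. All L2-fKO ovaries were above the wild-type ovaries, with L2-fKO ovary 2, the lowest in the granulosa and proliferation sums, well above the others. The oocyte sum in L2-fKO ovary 2 was 4019, against 4114 and 4233 in the other L2-fKO ovaries and 3677 to 4021 in wild-type ovaries. The part of these sums in the Kdm1b values was not tested. The log2 fold change was 0.33 (95% interval 0.03 to 0.64) with an adjusted p of 0.266 by limma, and over the 13 alternatives it ran from 0.18, without L2-fKO ovary 2, to 0.43, with adjusted p-values of 0.117 to 0.565. Exons of Kdm1b overlap those of Dek on the opposite strand. Kdm1a, the other LSD demethylase, had log2 fold changes of -0.11 and 0.04.

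Of the sex-linked demethylases, Kdm6a and Kdm5d were apart between the sexes over all spleens, and Kdm5c was so only within each genotype. KDM5C and its Y-linked counterpart KDM5D act on H3K4, KDM6A acts on H3K27, and both X-linked genes are known to be expressed from both X chromosomes in females. Kdm6a had normalized counts of 4609 and 5920 in the wild-type females and 6749 in the L2-fKO female, and of 2318 and 2767 in wild-type males and 2912, 2991 and 2348 in L2-fKO males. Females and males did not overlap, with a mean in females 2.16 times that in males. Between genotypes the log2 fold change was -0.06 with an SE of 0.38, and 0.20 with sex as a covariate (adjusted p 0.371) and 0.11 in males only (adjusted p 0.642). In ovary, where all donors were female, Kdm6a had 2961 to 3261 in wild-type and 3053 to 3819 in L2-fKO libraries, a log2 fold change of 0.16.

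Kdm5c had 6774 and 7087 normalized counts in wild-type females and 10170 in the L2-fKO female, and 4687 and 4973 in wild-type males and 7313, 6922 and 5399 in L2-fKO males. Each L2-fKO spleen was thus above the wild-type spleens of its own sex, while the genotypes overlapped when the sexes were pooled. Females and males overlapped as well when the genotypes were pooled, at 6774 to 10170 and 4687 to 7313, with a mean in females 1.37 times that in males. Within each genotype, however, every female was above every male, with 1 female among the L2-fKO spleens. Its log2 fold change was 0.34 (SE 0.21, adjusted p 0.310) without sex in the fit and 0.48 (adjusted p 0.0374) with sex as a covariate, and it was 0.44 (adjusted p 0.111) in males only. In ovary it was -0.12 (95% interval -0.31 to 0.07). Kdm5d had 601.0 and 626.6 in wild-type and 749.5, 749.9 and 911.5 in L2-fKO males and 0 to 3.98 in the females, so that its fitted value over all libraries, 0.97 with an SE of 1.43, rests on the sex of the animals.

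**Figure D4:**
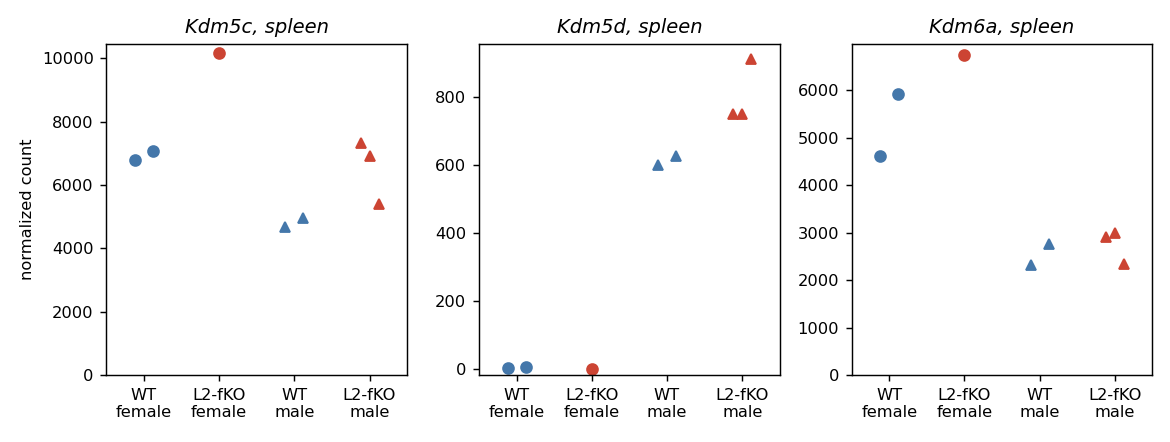
Normalized counts of Kdm5c, Kdm5d and Kdm6a in each spleen library by genotype (wild type blue, L2-fKO red) and sex (females circles, males triangles). There is 1 L2-fKO female. Kdm6a is higher in all females than in all males. Kdm5c is higher in L2-fKO than in wild type within each sex, and higher in females than in males within each genotype.

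The remaining demethylases did not pass by edgeR in spleen or limma in ovary with all libraries in the fit, although Kdm2b, Kdm4b and Kdm7a each passed under another setting. Kdm6b, an inducible H3K27 demethylase, had normalized counts of 1699, 1231, 1372 and 1219 in wild-type and 1569, 1514, 1275 and 2004 in L2-fKO spleens, and of 3576, 3181 and 3687 in wild-type and 3590, 2819 and 4132 in L2-fKO ovaries. Both pairs of groups overlapped, with log2 fold changes of 0.20 (95% interval -0.16 to 0.57) and 0.00 (-0.32 to 0.32). Kdm4c, which acts on H3K9 and H3K36, had 1198, 1162, 1082 and 1177 in wild-type and 1024, 1007, 1056 and 961.8 in L2-fKO spleens. All L2-fKO spleens were below the wild-type ones, with a log2 fold change of -0.19 (SE 0.09, adjusted p 0.210). In ovary Kdm4c had 1081, 1031 and 1099 in wild-type and 1070, 1182 and 1144 in L2-fKO libraries, a log2 fold change of 0.08 (SE 0.08).

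Kdm4a and Kdm4b, which share those substrates, had log2 fold changes of 0.02 and 0.30 in spleen and -0.11 and 0.16 in ovary, and Kdm4d had -0.32 in ovary at 25.1 to 46.8 normalized counts. In male spleens only Kdm4b was at 0.56 and passed (edgeR adjusted p 0.0361). The H3K9 demethylases Kdm3a and Kdm3b had -0.28 and 0.00 in spleen and 0.15 and -0.09 in ovary. Kdm7a, which acts on H3K9 and H3K27, had 0.36 in spleen (adjusted p 0.233) and 0.13 in ovary, and with sex as a covariate it passed in spleen at 0.47 (adjusted p 0.0492). Kdm2a and Kdm2b, the H3K36 demethylases that bind CpG islands, had -0.13 and 0.29 in spleen and -0.01 and -0.32 in ovary. Kdm2b in ovary had 2549, 2412 and 2534 normalized counts in wild-type and 2068, 1993 and 1945 in L2-fKO libraries, an adjusted p of 0.0667 by limma and 0.0051 by DESeq2 on the recovered reads. In spleen Kdm2b passed in the opposite direction in males only, at 0.66 (edgeR adjusted p 0.0170), and without wild-type spleen 3, at 0.50 (adjusted p 0.0259). The JmjC gene Kdm8 had -0.15 in spleen and -0.12 in ovary, and the antisense gene Kdm6bos had 0.30 in ovary with an SE of 0.63 at 7.30 to 43.3 normalized counts.

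The difference between the effect in spleen and the effect in ovary was tested directly for 43 members by limma. The effect was higher in spleen for Kmt5c and Setdb1 and lower for Kdm5b, which is 4.65% and 2.33% of the members where 3.03% and 3.45% of 15180 genes passed. For Kdm5b the difference was -0.68 on the log2 scale (SE 0.14, adjusted p 0.0110), and it passed in all 19 alternatives. For Kmt5c it was 1.14 (SE 0.31, adjusted p 0.0400) and for Setdb1 0.47 (SE 0.12, adjusted p 0.0270). Without the animal that gave both organs the adjusted p was 0.0886 for Kmt5c, with a difference of 0.82, and 0.0574 for Setdb1. The adjusted p for Kmt5c was 0.0631 to 0.103 without any 1 of L2-fKO spleens 1 and 2, wild-type spleens 1, 2 and 4, L2-fKO ovaries 1 and 2 and wild-type ovaries 1 to 3, and that for Setdb1 was 0.0549 to 0.0844 without any 1 of L2-fKO spleen 2, wild-type spleen 4, L2-fKO ovary 2 and wild-type ovaries 1 to 3. Setd4 had a difference of -0.53 with an adjusted p of 0.0744 and Kdm2b of 0.66 with 0.0899.

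Members with and without the 7-mer were set side by side in each organ. In spleen 11 of the 21 members that hold it were above 0 (52.4%, median log2 fold change 0.02) and 10 of the 23 without it (43.5%, median -0.09), where 56.3% of all genes with the 7-mer and 46.6% of genes without it were above 0. In ovary it was 13 of 21 with the 7-mer (61.9%, median 0.08) and 5 of 23 without it (21.7%, median -0.08), where the shares over all genes were 53.6% and 45.3%. Without L2-fKO ovary 1 the ovary counts were 9 of 21 and 5 of 23, with medians of -0.01 and -0.09. In male spleens only they were 16 of 21 and 13 of 23, with medians of 0.16 and 0.02. None of the ovary members that hold the 7-mer passed by limma, while DESeq2 called 1 higher, Kdm5b, and 2 lower, Kdm2b and Suv39h2. In spleen the 1 that passed by edgeR, Kdm5b, was lower, and which members with the 7-mer passed depended on the setting. DESeq2 also called Setd7 higher, in males only Kdm2b, Kdm4b and Setd7 were higher and Kdm5b did not pass, and with sex as a covariate Kdm7a was higher and Kdm5b did not pass. The members share libraries and were not tested as groups.

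**Figure D5:**
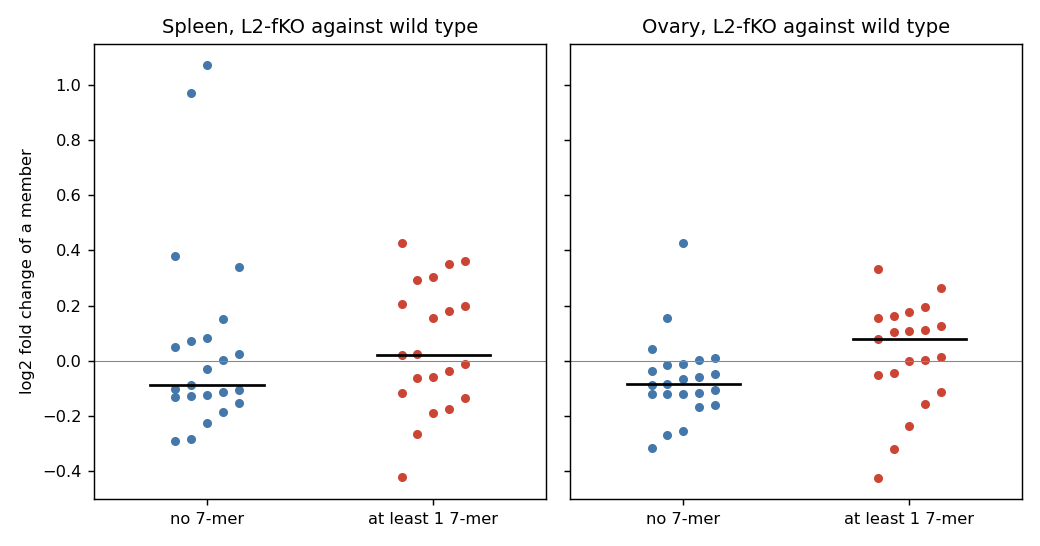
Log2 fold change of each member, L2-fKO against wild type, by whether its longest 3′UTR holds the 7-mer, in spleen (left, 23 without and 21 with) and ovary (right, 23 and 21). Lines are medians, at -0.09 and 0.02 in spleen and -0.08 and 0.08 in ovary, and the points of both kinds overlap over most of their range.

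The genes that work with these enzymes were followed in lists. As given for the members, 6.89% of all genes were higher and 6.51% lower in spleen, and 1.23% were higher and 0.351% lower in ovary, and most lists are too short for a share. Of 12 other histone lysine methylases, Mecom was higher in spleen, with normalized counts of 188.1 ± 38.1 in wild-type and 314.9 ± 73.2 in L2-fKO (log2 fold change 0.74, edgeR adjusted p 0.0472), and Smyd3 was lower, with 592.2 ± 82.5 and 328.2 ± 21.7 (-0.85, adjusted p 0.0042). Of 15 other JmjC genes 2 were lower and none higher in spleen. Jarid2, a JmjC protein without demethylase activity that guides Polycomb repressive complex 2, had 2898 ± 290.8 and 1847 ± 61.5 (-0.65, adjusted p 0.0032), and Riox1 had 1193 ± 115.2 and 880.3 ± 67.6 (-0.44, adjusted p 0.0300). Neither list had a gene past limma's test in ovary.

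Of 12 partners of Polycomb repressive complex 2 tested in spleen, 2 were lower and none higher, Jarid2 again and Phf1, which recruits the complex, with 889.9 ± 116.5 and 616.1 ± 110.1 (-0.53, adjusted p 0.0483). Of 13 H3K9 methylation partners 1 was lower in spleen, Trim28, the corepressor that brings SETDB1 to chromatin, with 14160 ± 1039 and 10790 ± 542.7 (-0.39, adjusted p 0.0336). Of 13 LSD1 partners 1 was lower in spleen, Gfi1, a transcriptional repressor of myeloid cells, with 412.3 ± 44.4 and 184.1 ± 69.5 (-1.16, adjusted p 0.0260), and the neutrophil sum was lower in the same libraries. Of 7 genes of the DOT1L list, Mllt3 was higher in spleen, with 3644 ± 511.3 and 5532 ± 1198 (0.60, adjusted p 0.0475), and Bcat1, a branched-chain amino acid transaminase that is no subunit of a DOT1L complex, in ovary, with 3309 ± 288.7 and 5011 ± 218.1 (0.60, limma adjusted p 0.0187). Of 10 genes of DNA methylation and its removal, Dnmt3l was higher in spleen at a very low level, with 5.91 ± 2.35 and 17.4 ± 0.531 (1.54, adjusted p 0.0140). None of the 13 genes of the MLL and SET1 complexes passed in either organ, where 2 in spleen and 3 in ovary had an unadjusted p below 0.05 and DESeq2 called 1 and 0. Over all entries of the 8 lists, with Jarid2 entered in 2 of them, 3 were higher (3.16%) and 7 lower (7.37%) of 95 in spleen and 1 higher (1.08%) of 93 in ovary. The share lower in spleen and the share higher in ovary are close to those over all genes, and the share higher in spleen is below it, with no test made. Over the same entries DESeq2 called 18 in spleen and 4 in ovary, and an unadjusted p below 0.05 was reached by 27 and 14. The shares of all genes by DESeq2 and by unadjusted p are not given here. The counts by those criteria can therefore not be set against a background, and the shares above, from edgeR and limma, are no measure for them.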

How the data were processed

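Spleen counts were made by the authors, using Trimmomatic 0.36 for trimming, STAR 2.5.2b for mapping to GRCm38 and featureCounts of Subread 1.5.2 to count unique exonic reads by strand. For ovary the deposited values are signal: read counts divided by 1 size factor per library. All ovary values came out as whole reads (100.0%, within 0.001) and gave recovered reads. The deposited spleen table also holds signal of the same kind. Columns with the authors' log2 fold changes, p-values and adjusted p-values, and 8 repeated per-sample columns, were not used.

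edgeR 4.0.16 (quasi-likelihood, TMM) was run on spleen genes with 10 counts in 4 libraries, limma 3.58.1 (trend) on log2(ovary signal + 1) for genes with 10 in 3 libraries, and limma on both for the difference between organs; intervals are 95%. Alternatives included DESeq2 1.42.0, in R 4.3.3. Normalized counts are TMM-scaled in spleen and the deposited signal in ovary. Levels used the merged exon length, and 3′UTRs the longest of each gene, from GENCODE. In tests on simulated data with 200 genes raised at a log2 fold of 1, 99.5% were recovered in spleen, 96.5% in ovary and 65.0% for the difference. With 200 genes lowered, at a log2 fold of -1, it was 100.0%, 90.5% and 61.0%. The simulation gave every gene the same biological spread and drew the changed genes from those with more reads. It gives no rate of recovery for smaller changes, such as those of most members. Pairs of libraries of a group differed by more than sampling noise (chi-square per degree of freedom 7.62 to 236 in spleen, 11.8 to 56.7 in ovary). Libraries are 1 animal each, and counting error is only part of the spread. The second wild-type spleen titled 3, a male, was numbered 4.

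Members and lists were chosen with earlier results of these data known. Values were given for members past the test, for Kdm5c, Kdm5d, Kdm6a, Kdm1b, Kdm4c, Kdm6b, Setd2, Kmt2d and Ezh2, for the 3 highest and 3 lowest levels, and for at most 3 called genes per list by p; Suv39h2, Kdm2b and Setd7, which lay nearest the threshold, and members that passed only under an alternative were added after their values were seen. Windows of 29 bases are from the GENCODE transcripts.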

Additional observations from a re-analysis of the deposited data

Results flagged for a closer look

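Kdm5b in wild-type spleen 1 stood apart from the other 3 wild-type spleens: its gap to the nearest of them was 0.966 of the range of the group, above Dixon's 95% critical value for 4 samples. Kdm6a in L2-fKO spleen 3 stood apart in the same way, with 0.854, and this library is from the only L2-fKO female among the spleens. Of 26 such groups looked at, chance marks about 1 in 20.

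The effect of the deletion differed between spleen and ovary for 3 members by limma's test of the difference. It was 1.14 for Kmt5c (log2 fold changes of 1.07 and -0.12), 0.47 for Setdb1 (0.38 and -0.08) and -0.68 for Kdm5b (-0.42 and 0.26), each as spleen minus ovary. The spleens came from both sexes and the ovaries from females, and with sex as a covariate the 3 members passed as well. Of the 19 alternatives, Kdm5b passed in 19, Setdb1 in 11 and Kmt5c in 8. Only Kdm5b passed without the animal that gave both organs, and Setdb1 did not pass with the replicate block.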

How the results depend on the processing

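Of the 44 members tested in spleen, 3 passed on adjusted p, and 1 did with no filter on low counts and 1 with a replicate block, which in both cases was Kmt5c. DESeq2 gave 4 (adding Setd7), sex as a covariate 4 (Kdm5c, Kdm7a, Kmt5c and Setdb1) and males only 4 (Kdm2b, Kdm4b, Kmt5c and Setd7). Without each replicate in turn it was 1 to 4. On adjusted p and fold 1 passed, and 0 did in males only and 0 to 1 without each replicate. In ovary 1 of 45 passed on adjusted p, 4 by DESeq2 on recovered reads, and 0 to 1 without each replicate. For the difference between organs 3 passed, 1 without the animal in both organs, 5 with sex as a covariate, and 1 to 5 without each replicate. With the replicate block 2 passed for the difference and 1 in ovary. Shares of all genes were taken only for edgeR in spleen and limma in ovary and for the difference, with all libraries and no covariate. Counts of members under the alternatives can therefore not be set against a background. Same-numbered wild-type and L2-fKO libraries correlated in their deviations at -0.293 to 0.179 in spleen, where differently numbered ones ran from -0.291 to 0.437. In ovary the same-numbered ones ran from 0.072 to 0.382 and the others from -0.326 to 0.184. The numbers were not taken as pairs, as no source used here states which libraries were paired. In ovary these few values do not decide whether same-numbered libraries were pairs, and the replicate block is the fit that treats them so. The median level per length over members was 8.79 in spleen and 15.1 in ovary with the length of the longest transcript. The share of members with the motif was 36.4% in either organ with the 3′UTR of median length, against 21.3% of all tested genes with a 3′UTR in spleen and 21.1% in ovary. For the 5-mer AUUUA it was 86.4% in spleen and 84.1% in ovary, against 69.3% and 68.8% of those genes. Members had longer 3′UTRs, and no test was made of these shares.

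Sign changes were limited to members that did not pass in the organ concerned. In males only the log2 fold change of Setd4 in spleen was 0.022, of Kdm1b 0.26 and of Kdm6a 0.11, and Kdm6a was 0.20 with sex as a covariate. Without each replicate, the values ran from -0.51 to 0.21 for Kdm6a and -0.22 to 0.10 for Kdm1b in spleen, and in ovary from -0.13 to 0.15 for Kdm6b, -0.086 to 0.123 for Setd2 and -0.012 to 0.297 for Kmt2d. Kdm6b in ovary was 0.009 by edgeR and 0.014 by DESeq2. The cause of these moves was not tested. At this depth low members such as Kdm4d and Kdm6bos allow no statement.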
